A study of Drosophila melanogaster with 4 samples.

Results

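The genes described here encode 10 proteins of the muscle sarcomere, mostly of its thick filament: the myosin heavy chain gene Mhc, the light chain genes Mlc1 and Mlc2, Prm, Mf and fln of the filament core and surface, the giant titin-like genes sls and bt, and the Z-disc genes Mlp60A and Mlp84B. They were chosen by symbol, and all 10 were found among the 15682 genes of the deposited table. The gene listed as mf was matched to Mf, the symbol that the reference pairs with FBgn0038294. The study compared poly(A) RNA from whole heads of Drosophila melanogaster in 2 libraries from flies expressing MJDtr-78Q and 2 from w1118 flies, which do not express it. MJDtr-78Q is a truncated form of human ataxin-3, the MJD protein, with an expanded polyglutamine tract, and is used to model Machado-Joseph disease. The sources used here give neither the driver that expresses it nor the age and sex of the flies, and w1118 is a strain without eye pigment.

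The sarcomere is the contractile unit of striated muscle. Thick filaments of myosin pull on thin filaments of actin that are anchored in the Z-discs. In insect muscle the thick filament has a core of paramyosin and carries surface proteins, and titin-like proteins link it to the Z-disc. A fly head holds the muscles that move the proboscis and antennae, but no flight muscle, which fills the thorax. In these head libraries the transcripts of the 10 genes took from 0.94% to 1.65% of all counts, as set out next.

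The 10 genes together took 1.65% and 1.11% of all counts in MJDtr-78Q libraries 1 and 2, against 1.04% and 0.94% in w1118 libraries 1 and 2. MJDtr-78Q library 1 was the highest, and Mhc alone made up 0.777% of its counts. In bulk heads, more muscle tissue and more RNA per fibre cannot be told apart. Levels below are log2(count + 1), with the 4 libraries brought to a common distribution by quantile normalization. Differences are MJDtr-78Q minus w1118 on that scale (n = 2 per group).

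No sarcomere gene passed the test. Of the 10 genes, 9 had the mean count of at least 10 that testing required; fln did not. With limma and Benjamini-Hochberg adjustment over 9049 genes, 0 of the 9 passed at 0.05, where 0 of all tested genes (0%) did. At an unadjusted p under 0.05 there were 0 of the 9, against 532 of all tested genes (5.88%). Differences of 7 of the 9 lay above 0, against 46.6% of all tested genes, and the median was 0.18, against -0.02 over all tested genes. Leaving out MJDtr-78Q library 1 brought the median of the 9 to 0.01, leaving out library 2 to 0.34, and length correction, described below, to 0.07. In the values as deposited, where all tested genes lie at a median of -1.23, the median of the 9 was -0.99. The plot of gene levels shows each library.

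**Figure D1:**
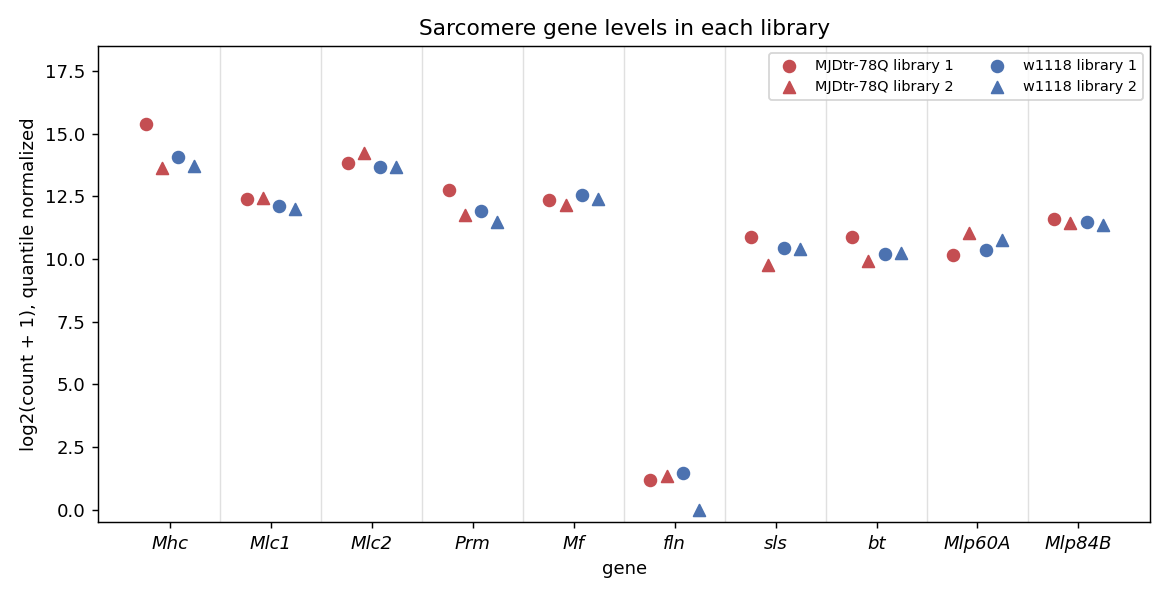
Level of each gene as log2(count + 1) after quantile normalization (vertical axis) in each of the 4 libraries, with MJDtr-78Q as red and w1118 as blue points, and library 1 as circles and library 2 as triangles. The gene fln lies between 0.00 and 1.48 in every library, and Mhc in MJDtr-78Q library 1, at 15.40, is the highest point.

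Myosin itself is built from a pair of heavy chains, which hold the motor, and from pairs of light chains that stiffen and regulate the lever arm. Mhc (FBgn0264695, 2L, positions 16766736 to 16788766 in the deposited table, with no genome build given in the sources used here) is the single muscle myosin heavy chain gene of the fly. It makes its isoforms by alternative splicing, and 21 transcripts are annotated in the BDGP6 reference, which gene counts do not separate. Mhc was at 15.40 and 13.64 in MJDtr-78Q libraries 1 and 2, against 14.06 and 13.71 in w1118 libraries 1 and 2. MJDtr-78Q library 1 stood above the 3 others and MJDtr-78Q library 2 below both w1118 libraries, so the groups overlapped. The difference was 0.64 (SE 0.61), with a 95% interval of -0.94 to 2.21 that covers a 2-fold rise, and did not pass (limma adjusted p = 1). Leaving out MJDtr-78Q library 2 gave 1.62 and leaving out MJDtr-78Q library 1 gave -0.24, so library 1 set the sign. Leaving out w1118 library 2 gave 0.41 and leaving out w1118 library 1 gave 0.76.

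The light chains were steadier. Mlc1 (FBgn0002772, 3R, 23483284 to 23485899), which encodes the essential light chain, was at 12.41 and 12.44 in MJDtr-78Q libraries, against 12.10 and 11.99 in w1118 libraries. Mlc2 (FBgn0002773, 3R, 25997159 to 26000273), which encodes the regulatory light chain, was at 13.82 and 14.21 in MJDtr-78Q libraries, against 13.66 and 13.69 in w1118 libraries. For both light chain genes the MJDtr-78Q libraries lay above the w1118 libraries without overlap. That order holds for 14.0% of all tested genes, and the light chain genes were 2 of the 9 sarcomere genes with it. Mlc1 differed by 0.37 (SE 0.21, 95% interval -0.18 to 0.93) and Mlc2 by 0.34 (SE 0.24, 95% interval -0.27 to 0.95), and neither passed (limma adjusted p = 1 for each). Both intervals end short of a 2-fold rise in this fit. Without the filter on low values they reached 0.98 for Mlc1 and 1.26, past a 2-fold rise, for Mlc2. Without the intensity trend that of Mlc2 reached 1.03. With either w1118 library left out, both intervals went past a 2-fold rise. With a library left out, Mlc1 ran from 0.34 to 0.45, whereas Mlc2 took values of 0.57 with MJDtr-78Q library 1 left out and 0.15 with library 2 left out.

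Prm, Mf and fln belong to the body of the thick filament. Prm (FBgn0003149, 3L, 8725957 to 8738410) encodes paramyosin, the rod protein of the filament core, and from a second promoter miniparamyosin. It was at 12.74 and 11.76 in MJDtr-78Q libraries, against 11.90 and 11.46 in w1118 libraries. As for Mhc, MJDtr-78Q library 1 was the highest, while MJDtr-78Q library 2 lay between the w1118 libraries. The difference of 0.57 (SE 0.40) did not pass (limma adjusted p = 1), and leaving out MJDtr-78Q library 2 gave 1.04 and leaving out MJDtr-78Q library 1 gave 0.08. With w1118 library 2 left out it was 0.35 and with w1118 library 1 left out 0.80.

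Mf (FBgn0038294, 3R, 10996346 to 11006143) encodes myofilin, a protein of the thick filament core. Its levels were 12.34 and 12.16 in MJDtr-78Q libraries, against 12.55 and 12.39 in w1118 libraries. Mf was the 1 sarcomere gene of the 9 with both MJDtr-78Q libraries below both w1118 libraries, an order seen in 15.5% of all tested genes. It differed by -0.22 (SE 0.22, 95% interval -0.80 to 0.36) and did not pass (limma adjusted p = 1). The value stayed below 0 with each library left out, from -0.31 to -0.13.

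Flightin, the product of fln (FBgn0005633, 3L, 19982650 to 19984279), is a myosin-binding protein found in flight muscle. Its deposited values correspond to 1.0 count in each MJDtr-78Q library, against 2.87 and 0 in w1118 libraries 1 and 2. It was near or at 0 in every library, and no fold is given. The other flight muscle genes listed had low or middling levels. The flight muscle actin gene Act88F was at 6.21 and 5.39 in MJDtr-78Q libraries, against 4.45 and 3.86 in w1118 libraries, and the flight muscle troponin C gene TpnC4 was at 2.98 and 4.34 in MJDtr-78Q libraries, against 3.25 and 2.71 in w1118 libraries. Act88F differed by 1.64 (SE 0.44) with groups that did not overlap, and did not pass (limma adjusted p = 0.66). The 5 listed flight muscle genes in the table summed to 0.0139% and 0.0133% of counts in MJDtr-78Q libraries and to 0.0118% in each w1118 library. Most of that was bru1, with 0.0106% and 0.0115% in MJDtr-78Q libraries, against 0.0103% and 0.0108% in w1118 libraries. Act88F took 0.00151% and 0.000833% in MJDtr-78Q libraries, against 0.000451% and 0.000283% in w1118 libraries. The 4 tested flight muscle genes had a median difference of 0.58, all above 0, against 46.6% of all tested genes. That median ran from 0.33 to 0.82 with a library left out, but was 0.01 where a mean count of at least 50 was required. The gene bru1, with most of the counts, differed by 0.01 (SE 0.22).

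The titin-like genes are among the longest in the fly genome. Products of sls (FBgn0086906, 3L, 2039680 to 2115611), Sallimus and its short form kettin, form the elastic link from the Z-disc to the thick filament. Its levels were 10.88 and 9.77 in MJDtr-78Q libraries, against 10.45 and 10.40 in w1118 libraries. The gene bt (FBgn0005666, 4, 745029 to 796707) encodes projectin, a giant kinase of the same family. It was at 10.87 and 9.93 in MJDtr-78Q libraries, against 10.20 and 10.24 in w1118 libraries. For both genes the w1118 libraries lay within 0.05 of each other, and the MJDtr-78Q libraries fell on either side of them. The differences were -0.10 (SE 0.42, 95% interval -1.18 to 0.98) for sls and 0.18 (SE 0.37, 95% interval -0.78 to 1.15) for bt, neither of which passed (limma adjusted p = 1 for each). Both turned with the MJDtr-78Q library used: without library 1 sls was at -0.66 and bt at -0.29, and without library 2 they were at 0.46 and 0.66.

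Mlp60A and Mlp84B encode muscle LIM proteins of the Z-disc, relatives of vertebrate CRP proteins. Mlp60A (FBgn0259209, 2R, 19962535 to 19965746) was at 10.16 and 11.03 in MJDtr-78Q libraries, against 10.35 and 10.74 in w1118 libraries. Library 1 was the lower of the pair in both groups, the reverse of Mhc and Prm. Mlp84B (FBgn0014863, 3R, 2939243 to 2943453) was at 11.60 and 11.43 in MJDtr-78Q libraries, against 11.47 and 11.37 in w1118 libraries, and its groups overlapped. Mlp60A differed by 0.05 (SE 0.37) and Mlp84B by 0.10 (SE 0.22), and neither passed (limma adjusted p = 1 for each). Mlp60A turned to -0.39 with MJDtr-78Q library 2 left out and to -0.14 with w1118 library 1 left out. It was 0.49 with MJDtr-78Q library 1 left out and 0.24 with w1118 library 2 left out. With no library left out, the 95% interval of Mlp84B, -0.48 to 0.67, ends short of a 2-fold change either way. That of Mlp60A, -0.92 to 1.02, reaches a 2-fold rise. The plot of differences gives all 9 intervals.

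**Figure D2:**
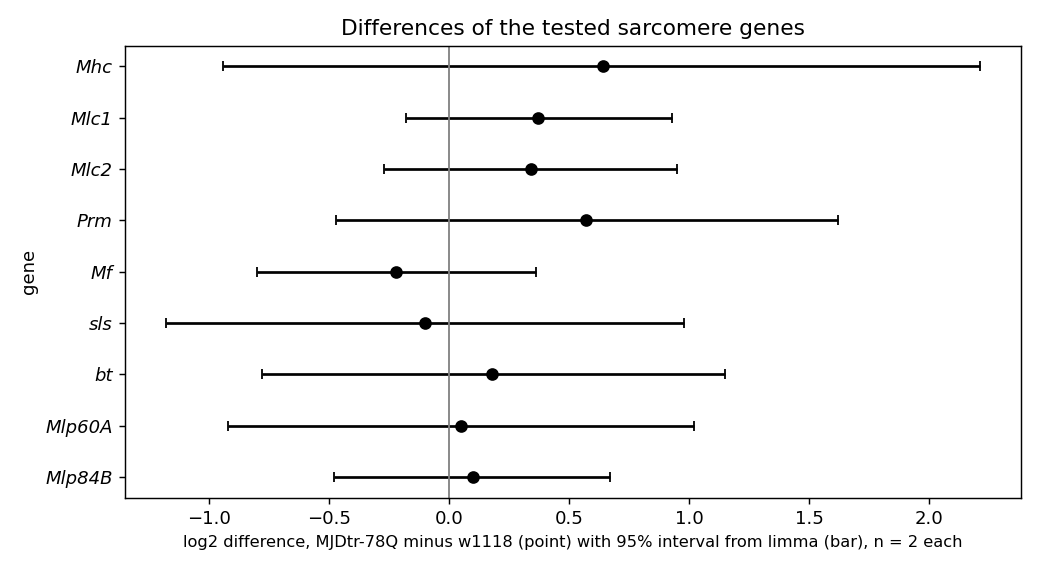
Difference of each tested gene on the log2 scale (horizontal axis), MJDtr-78Q minus w1118, with its 95% interval from limma and n = 2 per group. Every interval covers 0, and the widest is that of Mhc, from -0.94 to 2.21.

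The gap between the MJDtr-78Q libraries was wide for the long sarcomere genes. Library 1 minus library 2 was 1.76 for Mhc (exonic length 9.06 kb), 1.10 for sls (59.0 kb), 0.97 for Prm (5.36 kb) and 0.94 for bt (28.0 kb). It was 0.18 for both Mf (5.30 kb) and Mlp84B (3.14 kb), -0.03 for Mlc1 (1.41 kb), -0.39 for Mlc2 (2.29 kb) and -0.87 for Mlp60A (2.84 kb). Library 1 was thus above library 2 for 6 of the 9, against 46.2% of all tested genes, and by at least 1 for Mhc and sls, against 10.6%. In w1118 the same gap ran from -0.38 for Mlp60A to 0.44 for Prm.

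Across the 8641 tested genes with an exonic length, the gap moved with length in both groups, with Spearman's rho of 0.75 in MJDtr-78Q and 0.63 in w1118. This is a description across genes of the same libraries, which are not independent replicates. The median gap in MJDtr-78Q was 1.17 over 418 genes of 8 kb and over, 0.70 over 1458 genes from 4 to 8 kb, 0.09 over 2821 genes from 2 to 4 kb and -0.42 over 2711 genes from 1 to 2 kb. The median gap in w1118 was 0.36, 0.25, 0.04 and -0.18 in the same classes. Against these medians Mhc and Prm had a wider gap than their classes in MJDtr-78Q, sls and bt a slightly narrower one, and Mf, Mlc2 and Mlp60A lay below theirs. The part of length in the differences between groups was not tested, apart from the correction that follows.

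**Figure D3:**
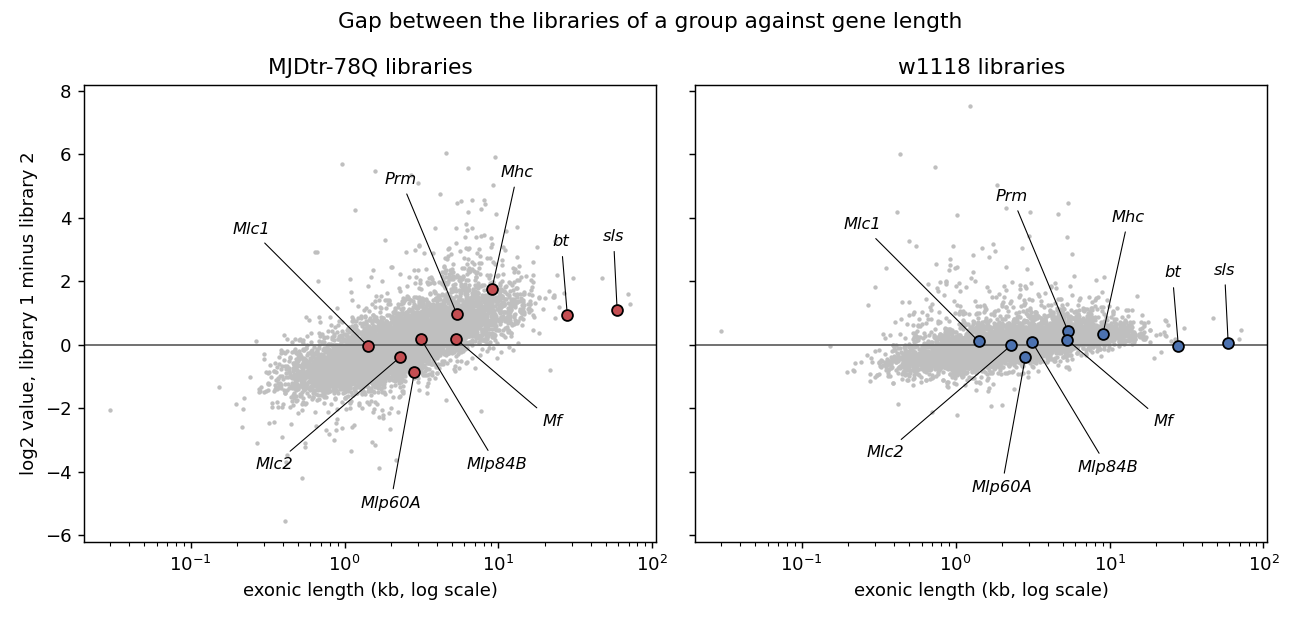
Log2 value of library 1 minus that of library 2 (vertical axis) against exonic length in kb (log scale) for the MJDtr-78Q libraries (left) and the w1118 libraries (right). Grey points are all tested genes with a length and coloured points the 9 sarcomere genes; Mhc lies at 1.76 on the left and 0.35 on the right.

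When a trend on exonic length was removed from each library, Mhc differed by 0.42 (SE 0.20), Prm by 0.45 (SE 0.16), Mlc1 by 0.44 (SE 0.19) and Mlc2 by 0.36 (SE 0.16). The 4 values lay closer together than before the correction. None passed (limma adjusted p = 0.504, 0.321, 0.457 and 0.466), where 0.0694% of the 8641 genes did. Mf was at -0.33 (SE 0.22) and sls at -0.51 (SE 0.40), and bt turned to -0.16 (SE 0.35). Mlp60A, at 0.04, and Mlp84B, at 0.07, hardly moved. The corrected gap between the MJDtr-78Q libraries was 0.57 for Mhc and 0.20 for Prm, but -1.15 for sls and -0.93 for bt. With the replicate number as a block as well, sls passed (limma adjusted p = 0.0453), 1 of the 9, against 10.5% of the 8641 genes. The SE of sls was 0.17 in that fit. Its corrected levels were 9.55 and 10.70 in MJDtr-78Q libraries, against 10.35 and 10.91 in w1118 libraries, so the groups overlapped. With the block alone 0 of the 9 passed, against 4.28% of the 9049 genes. The length correction turned the gap between the MJDtr-78Q libraries round for sls and bt, and also for Mf, to -0.58, for Mlp84B, to -0.07, and for Mlc1, to 0.38.

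**Figure D4:**
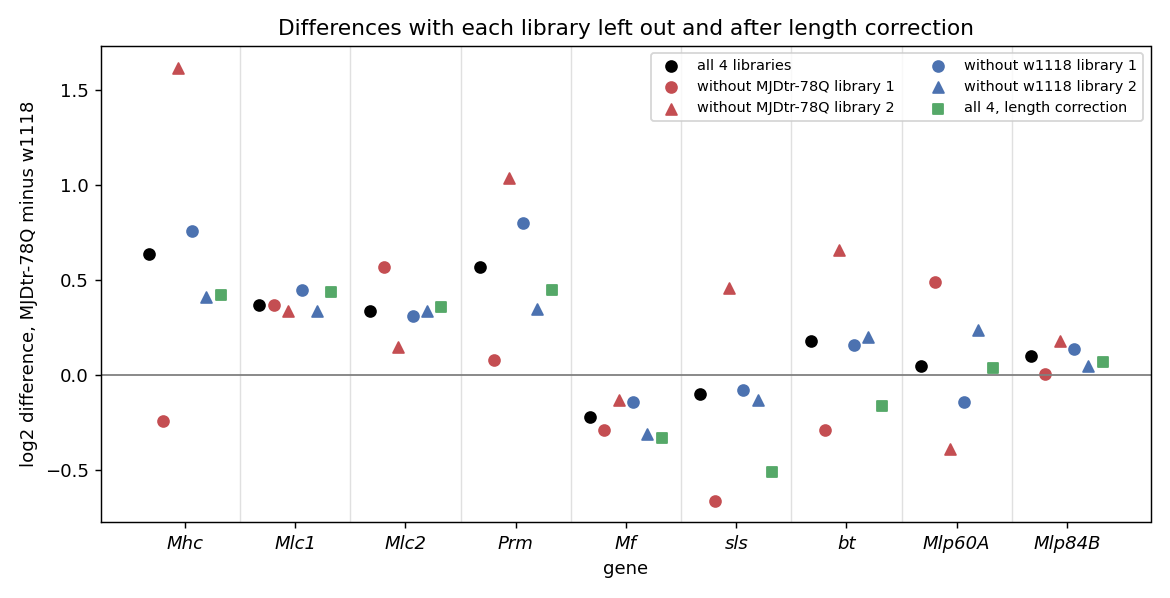
Log2 difference of each tested gene, MJDtr-78Q minus w1118 (vertical axis), from all 4 libraries (black), with each library left out (red and blue) and after length correction (green). Mhc runs from -0.24 to 1.62 with the MJDtr-78Q libraries left out in turn, while Mlc1 stays between 0.34 and 0.45 over all points.

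Levels of different genes were compared as normalized counts per kb of exonic length, for which the exons of all annotated transcripts were joined. Mlc2 was the highest, with 7329 ± 1395 in MJDtr-78Q heads and 5728 ± 69 in w1118 heads (SD, n = 2 each). Mlc1 followed, with 3882 ± 58.5 in MJDtr-78Q heads and 2996 ± 156 in w1118 heads, and then Mhc, with 3086 ± 2377 in MJDtr-78Q heads and 1678 ± 286 in w1118 heads. In MJDtr-78Q the values of Mlc1 lay within the range of Mhc, so their order there is not beyond the spread. Next came Prm (962 ± 442 in MJDtr-78Q and 619 ± 132 in w1118), Mlp84B (935 ± 81 in MJDtr-78Q and 874 ± 39 in w1118), Mf (922 ± 81 in MJDtr-78Q and 1072 ± 86 in w1118) and Mlp60A (570 ± 235 in MJDtr-78Q and 531 ± 99 in w1118). In MJDtr-78Q the first 3 of these overlapped, and so did Prm and Mlp60A in both groups, while in w1118 Mf lay above Mlp84B and Mlp84B above Prm without overlap. The giants were far lower per kb: bt had 50.8 ± 22.6 in MJDtr-78Q and 42.5 ± 0.75 in w1118, and sls 23.3 ± 12.0 in MJDtr-78Q and 23.3 ± 0.59 in w1118. They did not overlap in either group. The gap between libraries moved with exonic length, as described above, and per-kb levels were not corrected for that. Genes this unlike in length therefore compare only roughly per kb. The lowest was fln, at 1.10 ± 0.15 in MJDtr-78Q and 0.69 ± 0.97 in w1118.

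A linear scaling between libraries cancels in a ratio of 2 genes within a library, but quantile normalization, which the deposited values had within each group, is not linear. From the deposited values 11 ratios were computed. The ratio of Mlc1 to Mlc2 counts was 0.379 and 0.308 in MJDtr-78Q libraries, against 0.352 and 0.326 in w1118 libraries. The groups overlapped there. The ratio of Mlc2 to Mhc had a wider spread, at 0.409 and 1.39 in MJDtr-78Q libraries, against 0.770 and 0.988 in w1118 libraries. Of the 11 ratios, 6 did not overlap between groups, and 5 of the 6 did not on the common scale of the 4 libraries either. The 11 ratios share genes, and the share without overlap over all gene pairs was not computed. The count of 6 therefore has no background to be read against. Mf was lower in MJDtr-78Q relative to Mhc, Mlc1, Mlc2 and Prm, 4 ratios that share Mf, but on the common scale the groups overlapped for Mf to Mhc. On the log2 scale Mf to Mlc1 was -0.07 and -0.33 in MJDtr-78Q libraries, against 0.41 and 0.33 in w1118 libraries, a difference of -0.57. Mf to Prm was -0.37 and 0.41 in MJDtr-78Q libraries, against 0.60 and 0.85 in w1118 libraries, a difference of -0.71. The ratio of sls to Mhc also lay lower in MJDtr-78Q, by -0.72, and that of bt to sls higher, by 0.30. Each of the 6 had an exact two-sided permutation p = 0.333, the smallest that 2 libraries against 2 allow, and 0.611 when adjusted over the 11 ratios, so none can pass in this design.

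Other sarcomere genes, among them Z-disc, M-line and capping proteins, had a median of 0.29 over 10 tested genes, 8 of them above 0. Over all tested genes 46.6% lay above 0, the share to set beside this count and those of the lists below. Leaving out MJDtr-78Q library 1 brought that median to 0.08, leaving out library 2 to 0.67, and leaving out w1118 library 2 to 0.19. With limma 0 passed, where 0% of all tested genes did. At an unadjusted p under 0.05 (limma) 1 was higher, Zasp67, against 3.46% of all tested genes. With the replicate block 2 passed, both higher, Zasp67 (limma adjusted p = 0.0213) and tmod (0.00628), against 4.28% of all tested genes. Zasp67, a Z-disc PDZ-domain gene, was at 6.04 and 4.89 in MJDtr-78Q libraries, against 4.01 and 3.44 in w1118 libraries, a difference of 1.74 (SE 0.52, limma adjusted p = 0.704). Tropomodulin (tmod), which caps the thin filament's pointed end, was at 13.14 and 11.68 in MJDtr-78Q libraries, against 11.71 and 10.56 in w1118 libraries. It is a long gene whose library 1 was the higher in each group, and it differed by 1.27 (SE 0.63, limma adjusted p = 1). Chd64, a calponin-like gene, was lower without overlap, by -0.42 (SE 0.22, limma adjusted p = 1). The M-line gene Obsc, known as Unc-89, was at 11.16 and 9.37 in MJDtr-78Q libraries, against 10.06 and 9.45 in w1118 libraries, with MJDtr-78Q library 1 the highest and library 2 the lowest. Of the 15 listed genes, Zasp52, Strn-Mlck, tn, unc-45 and Fhos were not analysed here.

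Thin filament genes, which encode actins, troponins and tropomyosins, had a median of 0.60, with all 12 tested above 0 (the list's median was -0.58 in the values as deposited), and 9 had MJDtr-78Q libraries above w1118 libraries without overlap, against 14.0% of all tested genes. The jump muscle actin gene Act79B differed by 1.79 (SE 0.31, limma adjusted p = 0.595), the troponin C gene TpnC47D by 3.37 (SE 0.76, limma adjusted p = 0.612) and the actin gene Act87E by 1.14 (SE 0.29, limma adjusted p = 0.628). With limma 0 of the 12 passed, and 4 were higher at an unadjusted p under 0.05, against 3.46% of all tested genes. With the replicate block 4 of the 12 passed, all higher, against 4.28% of all tested genes in either direction: TpnC47D (limma adjusted p = 0.000544), Act79B (0.00144), the flight muscle actin gene Act88F (0.0116) and Act87E (0.0166). No label ties equal replicate numbers to a shared batch. TpnC47D was at 7.92 and 8.97 in MJDtr-78Q libraries, against 6.07 and 4.08 in w1118 libraries. The difference between the thin and thick filament genes was not tested.

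Genes that serve contraction around the filaments had small medians. Calcium handling and energy genes had a median of 0.17 over 6 genes, 5 of them above 0. It turned to -0.06 on leaving out MJDtr-78Q library 1, was 0.48 on leaving out library 2 and 0.06 on leaving out w1118 library 2, and was 0 after length correction. The calcium pump gene SERCA was at 14.54 and 14.17 in MJDtr-78Q libraries, against 14.02 and 14.06 in w1118 libraries, and differed by 0.32 (SE 0.23). The arginine kinase gene Argk1 differed by -0.13 (SE 0.22), and the calcium release channel gene RyR by 0.32 (SE 0.55). Muscle attachment genes had a median of 0.13 over 16 genes, 9 of them above 0, with the kindlin gene Fit2 at 0.48 (SE 0.30), the transmembrane protein gene kon at 0.58 (SE 0.37) and the integrin gene mys at 0.42 (SE 0.29). The attachment median turned to -0.03 on leaving out MJDtr-78Q library 1, to -0.06 on leaving out w1118 library 2 and to -0.08 after length correction. It was 0.33 on leaving out MJDtr-78Q library 2 and 0.27 on leaving out w1118 library 1. In these lists, and among the regulators, 0 genes passed with limma, where 0% of all tested genes did. With the replicate block 0 passed, against 4.28% of all tested genes. At an unadjusted p under 0.05 (limma) there were 0, against 5.88% of all tested genes.

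Regulators of muscle genes had a median of 0.12 over 8 tested genes, 6 of them above 0. That median turned to -0.28 on leaving out MJDtr-78Q library 1 and to -0.01 after length correction. It was 0.32 on leaving out MJDtr-78Q library 2, and 0.21 and 0.03 on leaving out w1118 libraries 1 and 2. Mef2, the transcription factor that activates most muscle structural genes, was at 9.44 and 9.20 in MJDtr-78Q libraries, against 9.07 and 9.11 in w1118 libraries. It differed by 0.23 (SE 0.23), without overlap. The MyoD relative nau differed by 0.45 (SE 0.46) and the flight muscle selector salm by 0.47 (SE 0.65). For none of these 3 did the difference pass (limma adjusted p = 1 for each).

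Nonmuscle myosins and their partners, which move cargo and shape cells, had a median of -0.12 over 15 tested genes, 4 of them above 0. It was -0.40 on leaving out MJDtr-78Q library 1, turned to 0.32 on leaving out library 2, and was -0.07 and -0.19 on leaving out w1118 libraries 1 and 2. Myo28B1 was lower without overlap, at 6.66 and 5.56 in MJDtr-78Q libraries, against 7.46 and 7.33 in w1118 libraries, a difference of -1.28 (SE 0.42, limma adjusted p = 0.731). It was the 1 gene of the 15 to pass with the replicate block (limma adjusted p = 0.0103), against 4.28% of all tested genes. The unconventional myosin gene dachs was at 7.43 and 5.65 in MJDtr-78Q libraries, against 5.94 and 5.16 in w1118 libraries, and Myo95E differed by 0.43 (SE 0.29). The cytoplasmic light chain genes sqh and Mlc-c differed by -0.12 and -0.11, with groups that overlapped, and the nonmuscle heavy chain gene zip was not analysed here. Whether the sarcomere genes differ from the nonmuscle myosins was not tested.

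**Figure D5:**
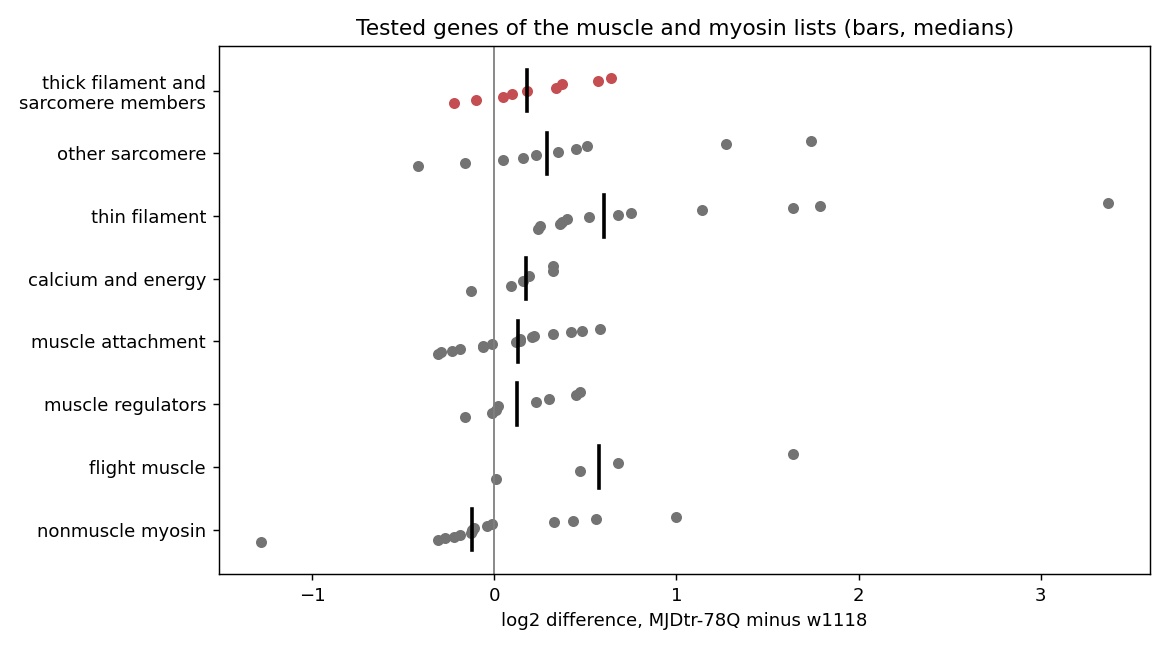
Log2 difference, MJDtr-78Q minus w1118 (horizontal axis), of each tested gene in the sarcomere list (red) and in the related lists (grey), with black bars for medians. The sarcomere genes lie from -0.22 to 0.64 around a median of 0.18, and the thin filament genes from 0.24 to 3.37.

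By profile over the 4 libraries, each gene centred on its own mean, the 5 genes nearest to the mean profile of the 9 sarcomere genes were CG6729, kirre, CG13609, mip130 and cher. Their Euclidean distances were 0.0266, 0.0305, 0.0326, 0.0381 and 0.0468. The mean profile was 0.32 and -0.11 in MJDtr-78Q libraries, against -0.07 and -0.15 in w1118 libraries. The sarcomere genes themselves lay from 0.214 for Mlp84B to 1.05 for Mhc from that mean. The 5 nearest were picked for the smallest distances among all other tested genes, so larger values for the members say little. Whether the members share 1 profile was not tested. With 4 libraries many genes can lie near any profile.

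The back-transformed totals were 3111583 and 3111393 in MJDtr-78Q libraries, against 7147867 and 7147717 in w1118 libraries, and r over the tested genes was 0.910 between the MJDtr-78Q libraries and 0.9745 between the w1118 libraries. Across groups r was 0.949 and 0.899 for MJDtr-78Q library 1 with w1118 libraries 1 and 2, and 0.952 and 0.953 for MJDtr-78Q library 2. Both MJDtr-78Q libraries therefore had a higher r with w1118 library 1 than with each other. Markers of other cell types in the head also varied. The 5 neuron markers in the table, of 6 listed, summed to 0.327% and 0.149% of counts in MJDtr-78Q libraries, against 0.218% and 0.165% in w1118 libraries. MJDtr-78Q library 1 was thus the highest and library 2 the lowest, with 0 markers at 0. All 5 have exonic lengths of 4.07 kb or more. Their median gap between the MJDtr-78Q libraries was 1.23, against 1.17 over all tested genes of 8 kb and over. After length correction that gap was 0.83 for brp, 0.40 for Syt1, 0.16 for nSyb, 0.04 for Rdl and -0.99 for elav. The part of length in the neuron sums was not tested. The 8 hemocyte markers summed to 0.216% and 0.116% in MJDtr-78Q libraries, against 0.113% and 0.0839% in w1118 libraries. The 6 cuticle markers summed to 0.0186% and 0.0159% in MJDtr-78Q libraries, against 0.00749% and 0.00579% in w1118 libraries, with Cpr66Cb at 0 in w1118 library 2. Photoreceptor markers, 7 in the table, summed to 1.24% and 1.07% in MJDtr-78Q libraries, against 2.32% and 2.31% in w1118 libraries. Glial markers, 6 in the table, summed to 0.418% and 0.313% in MJDtr-78Q libraries, against 0.354% and 0.302% in w1118 libraries. Fat body markers, 5 in the table, summed to 0.486% and 0.403% in MJDtr-78Q libraries, against 0.441% and 0.371% in w1118 libraries. Of all counts, ninaE alone took 0.461% and 0.413% in MJDtr-78Q libraries, against 1.08% and 1.14% in w1118 libraries. Col4a1, from the hemocyte list, took 0.112% and 0.0519% in MJDtr-78Q libraries, against 0.0502% and 0.0355% in w1118 libraries. From the same list vkg took 0.0685% and 0.035% in MJDtr-78Q libraries, against 0.0316% and 0.0236% in w1118 libraries. Together Col4a1 and vkg made up most of the hemocyte sum in every library. Differences of the tested hemocyte markers ran from -0.10 to 0.85 around a median of 0.47. Differences lay above 0 for 4 of 5 tested neuron, 6 of 7 hemocyte and 4 of 4 cuticle markers. They did for 1 of 7 photoreceptor, 4 of 6 glial and 2 of 5 fat body markers. The part of these tissues in the sarcomere values was not tested.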

How the data were processed

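Per the labels' protocols, stranded TruSeq libraries were made from poly(A) RNA of heads. Per the submitters' processing notes the tools were HTSeq 0.6.1, TopHat2 2.0.10, Bowtie, cutadapt 1.2.1 and CASAVA 1.8.2, with no roles stated; the sources used here give no genome build and no strand setting of the counting. The deposited table holds log2(count + 1) for 15682 genes. Its values show that the authors' quantile normalization ran separately in each group, a step no label records. Whole reads cannot be recovered, so counting error is unknown.

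The 4 libraries were quantile normalized together, genes with a back-transformed mean of at least 10 were kept (9049), and limma 3.58.1 (R 4.3.3) compared the groups (intensity trend, two-sided, Benjamini-Hochberg over all tested genes). The labels do not say that libraries came from separate flies, so p-values measure only the spread between these samples. Symbols matched 15002 IDs; 680 had none, and 13 of 121 listed genes outside the members were not matched. Exonic lengths came from an Ensembl BDGP6 annotation by gene ID, for 95.5% of tested genes, and none of its coordinates was printed. Length correction removed a loess trend (span 0.5). Exons of sls and fln overlap antisense genes, so those values are uncertain.

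Members, lists and tests were chosen with earlier results of these data known. Genes named are the 10 members, up to 3 of each related list by increasing p, and the 5 nearest profiles. Obsc, sqh, Mlc-c, bru1, ninaE, Col4a1, vkg and the neuron markers were chosen for naming after their values were seen. Steps were tested on simulated data.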

Additional observations from a re-analysis of the deposited data

How the results depend on the processing

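The sarcomere genes gave 0 calls in 14 of 16 alternatives: both other pseudocounts (0.5 and 5), both other filters (none, or a mean count of 50), upper-quartile and TMM scaling, both other variance priors (no trend, robust), the replicate block, length correction and each library left out. The values as deposited, unscaled between groups, gave 6742 calls over all genes and 6 among the sarcomere genes, with a median of -0.99 (all tested genes: -1.23). There Mhc was at -0.57, Mlc1 at -0.77, Mlc2 at -0.78, Prm at -0.63, bt at -0.99 and Mlp60A and Mlp84B at -1.14, which mixes depth with expression. With the replicate number as a block, 387 genes passed over all genes (4.28%) and 0 sarcomere genes. Length correction gave 6 calls over all genes. Length correction with the replicate block gave 906 (10.5%) and 1 sarcomere gene, sls at -0.51 (limma adjusted p = 0.0453). The corrected levels of sls overlapped between groups. In each of these fits bt turned to -0.16. No label ties equal replicate numbers to a shared batch, and the gaps of replicate 1 minus 2 correlated across genes between the groups (r = 0.536, or 0.331 after length correction). With libraries left out, calls over all genes ran from 0 to 3. Mhc ran from -0.24 to 1.62, bt from -0.29 to 0.66, sls from -0.66 to 0.46 and Mlp60A from -0.39 to 0.49. The sarcomere median ran from 0.01 to 0.34. The 11 ratios on the common scale, an alternative chosen after seeing the data, moved by less than the spread between replicates. The unknown depth per gene limits what fln can show.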
